A study of Homo sapiens with 8 samples.

Results

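The 40 lysosome and autophagy genes described here were fixed by name, with earlier results of these data known. They are 40 of the 16796 genes listed for LX-2 cells, a human hepatic stellate cell line. They comprise 18 genes of lysosomal hydrolases and their partner proteins, 4 genes of lysosomal membrane proteins, 15 autophagy genes and 3 genes of the TFEB family of transcription factors. All 40 were listed, passed the filter on low counts and received a q-value. For 24 h the cells, kept in medium with 5% serum, were given either the vehicle DMSO (control) or 50 µM of OSMI-1 (OGTi), which inhibits OGT, the enzyme behind protein O-GlcNAcylation. Each group had 4 libraries of polyadenylated RNA from biological replicates, and the treated and control libraries of a replicate number form a pair. As a single immortalized line, LX-2 represents stellate cells from 1 source, and the inhibitor was used at a single dose and time.

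Lysosomes are acidic organelles in which hydrolases break down proteins, glycans, lipids and nucleic acids. Autophagy delivers cytoplasmic cargo to them inside a double membrane that is initiated by the ULK1 kinase, extended by a conjugation machinery that attaches ATG8 proteins to lipid, and loaded through cargo receptors such as SQSTM1 (p62). TFEB, TFE3 and MITF bind E-box motifs in the promoters of many of these genes, and their activity is known to depend mainly on phosphorylation by the kinase complex mTORC1 and on their place in the cell, neither of which RNA levels show. Hepatic stellate cells are known to draw on autophagy of lipid droplets when they turn into myofibroblasts.

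Libraries held between 24166756 and 28201215 expected counts. Of 12 stellate cell markers, 9 had a q-value, and of these 7 fell and 0 rose under OGTi, beside 24.0% and 22.7% of all genes. DES, LRAT and HAND2 had few or no counts. The mesenchymal marker VIM had a mean of 95086 ± 8983 normalized counts (SD, n = 4) in control and 89632 ± 13605 in OGTi, and COL1A1, the chain of the main fibrillar collagen, had 84778 ± 5372 and 43931 ± 5335. Of 8 macrophage and leukocyte markers, 4 were listed and 0 were called, with a summed level of 73.5 to 115 normalized counts in control and 55.1 to 120.5 in OGTi, and the other 4 (CD163, MARCO, TYROBP and AIF1) were not listed. Of 7 hepatocyte markers 3 were listed and 0 were called. Among endothelial markers CDH5 fell (37.3 ± 9.59 normalized counts in control and 3.86 ± 2.098 in OGTi), and among cholangiocyte markers KRT7 fell (111 ± 33.4 and 53.8 ± 18.8) and SOX9 rose (834 ± 193 and 1045 ± 137). The part of these markers in the results was not tested. Normalized counts are expected counts, rounded and divided by the DESeq2 size factor of the library. RNA was taken from whole cultures, so a change in every cell and a change in a share of the cells cannot be told apart.

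Under OGTi, 21 of the 40 genes rose and 5 fell, where a gene was called at a DESeq2 q-value of 0.05 or lower. Among all 14028 genes with a q-value, 22.7% rose and 24.0% fell. The share that rose (52.5%) was above this background and the share that fell (12.5%) below it. Because the 40 genes were chosen with earlier results of these data known, this difference is a description and not an independent result. The median log2 fold change of the 40 genes was 0.18 (0.16 to 0.23 in the 4 single pairs), beside 0.00 for all genes. With an absolute log2 fold change of at least 0.5 asked for as well, 12 rose and 1 fell, beside 11.7% and 12.5% of all genes. In 20 genes the 4 OGTi libraries all lay above the 4 control libraries and in 4 they all lay below, beside 19.8% and 20.2% of all genes. Together the 40 genes took 0.424 to 0.496% of the counts of a control library and 0.631 to 0.662% of those of an OGTi library, with no overlap between the groups. These shares are of counts before normalization and weigh abundant genes most. In normalized counts the 40 genes summed to a mean of 125812 in control and 163892 in OGTi, of which SQSTM1 alone held 8368 and 23621. Without the replicate block, DESeq2 called 20 of the 40 genes higher and 5 lower, beside 21.2% and 22.0% of all genes, and edgeR called 19 and 5, beside 20.0% and 20.5%. The blocked edgeR fit called 20 and 6, beside 23.4% and 24.1%.

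Counts by group stand beside the same 22.7% higher and 24.0% lower of all genes, and differences between groups were not tested. Among hydrolases 12 of 18 rose and 1 fell, with a median log2 fold change of 0.47. Of the 4 membrane protein genes, 1 rose and 0 fell (median 0.11), a share higher (25%) near that of all genes. Among autophagy genes 7 of 15 rose and 2 fell (median 0.17). In the TFEB family 1 of 3 rose and 2 fell (median -0.32). Across the 4 single pairs the group median ran from 0.38 to 0.64 for hydrolases, from 0.04 to 0.16 for membrane proteins, from 0.14 to 0.26 for autophagy genes and from -0.46 to -0.20 for the TFEB family.

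**Figure D1:**
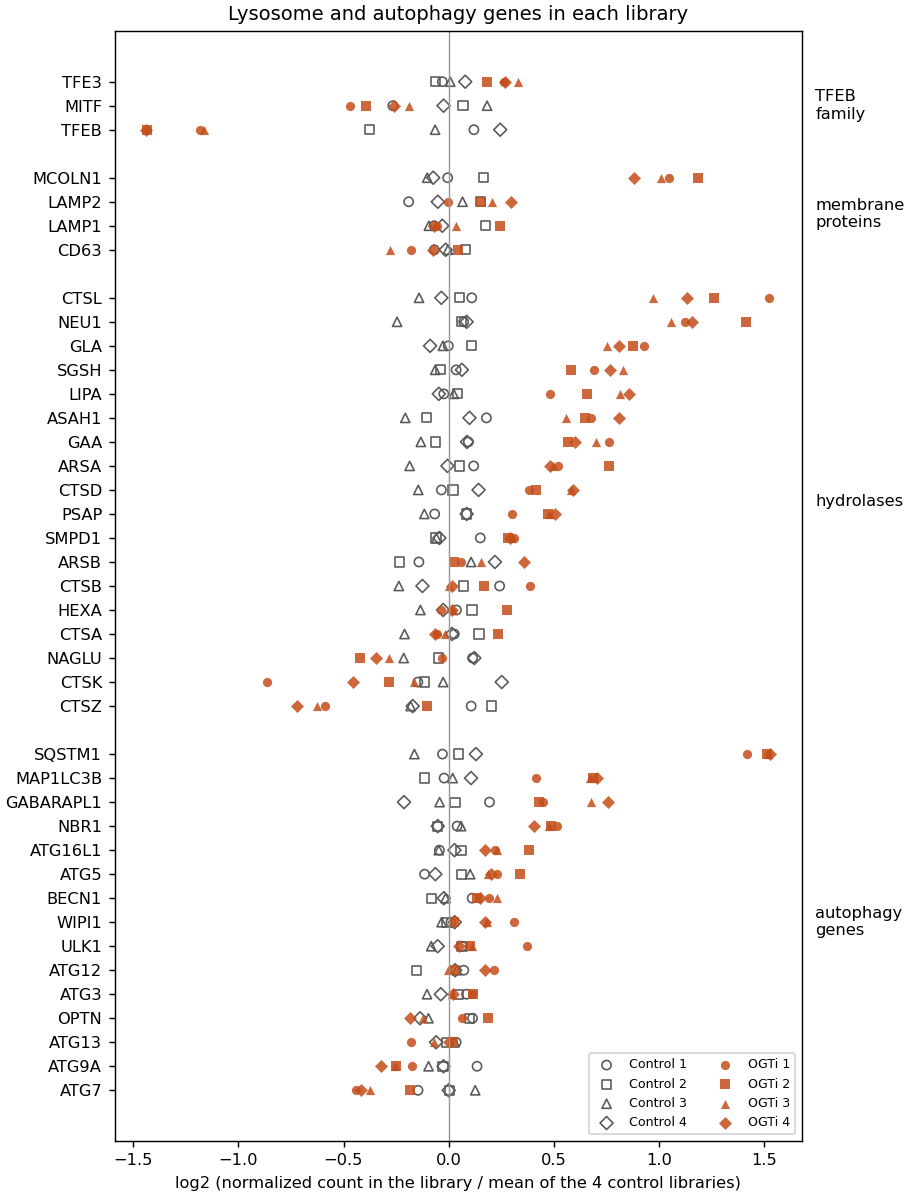
Each row is 1 of the 40 genes, and the x axis gives the log2 ratio of its normalized count in a library to the mean of the 4 control libraries. Open symbols are the 4 control libraries and filled symbols the 4 OGTi libraries, with 1 symbol shape per replicate number. SQSTM1, CTSL, NEU1 and MCOLN1 lie furthest to the right in OGTi, and TFEB furthest to the left.

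The TFEB family genes moved in opposite directions. TFEB (GRCh38 chr6:41683978-41736259, minus strand), the factor that gives the family its name, had 180.2, 128, 159 and 197 normalized counts in control replicates 1 to 4 and 73.1, 61.3, 74 and 61.1 in OGTi replicates 1 to 4. All 4 OGTi libraries lay below all 4 control libraries, and TFEB fell with a log2 fold change of -1.29 ± 0.23, q = 9.84e-08 (DESeq2; the value after ± is the standard error). TFE3 (chrX:49028726-49043410, minus strand), its close relative, had 8078, 7901, 8291 and 8711 normalized counts in control replicates 1 to 4 and 9897, 9365, 10352 and 9919.9 in OGTi replicates 1 to 4. Again the groups did not overlap, but TFE3 rose, by a log2 fold change of 0.26 ± 0.06, q = 0.00019. MITF (chr3:69739456-69968336, plus strand), the family member best known from pigment cells, had 1218, 1535, 1662 and 1439 normalized counts in control replicates 1 to 4 and 1056, 1115, 1284 and 1224 in OGTi replicates 1 to 4. MITF fell by 0.32 on the log2 scale (q = 0.00129) and was lower in all 4 pairs, although OGTi replicates 3 and 4 lay above control replicate 1.

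Levels of different genes are compared per kilobase of the MANE Select transcript. On that scale TFE3 had 2505 ± 106 normalized counts per kilobase (SD, n = 4) in control, MITF had 305 ± 39.1 and TFEB had 71.1 ± 12.7. Under OGTi the levels were 3003 ± 123 for TFE3, 244 ± 21.5 for MITF and 28.9 ± 3.07 for TFEB. The order TFE3, MITF, TFEB was the same in every library, and TFEB, with at most 197 normalized counts in a library, was the least precisely measured of these genes.

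**Figure D2:**
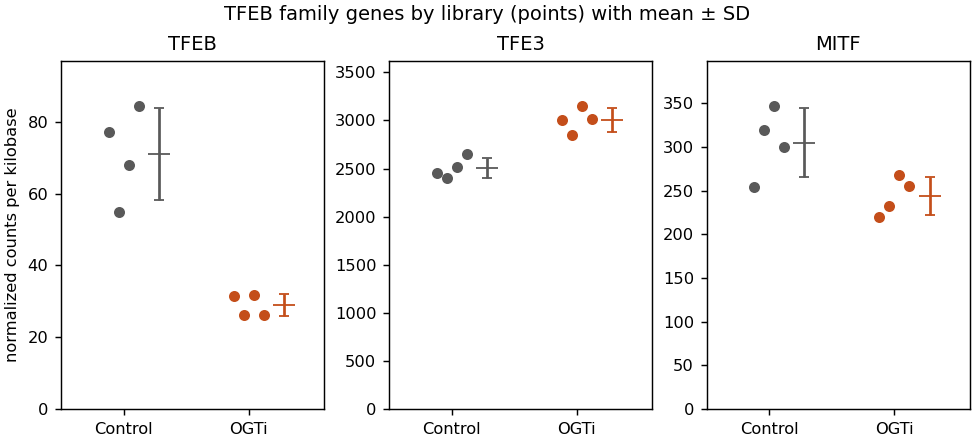
The panels show TFEB, TFE3 and MITF in normalized counts per kilobase of transcript (y axis, starting at 0 with its own scale in each panel) for control and OGTi. Points are libraries and bars the mean with its SD over 4 libraries. TFEB and MITF are lower and TFE3 is higher in OGTi, and TFE3 is the most abundant of these genes in both groups.

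Among the membrane proteins MCOLN1 was the gene that rose. MCOLN1 (chr19:7522624-7534009, plus strand), which encodes the lysosomal cation channel mucolipin-1, had 793, 891, 741 and 756 normalized counts in control replicates 1 to 4 and 1646, 1814, 1603 and 1468 in OGTi replicates 1 to 4. The lowest OGTi library was well above the highest control library, and the log2 fold change was 1.04 ± 0.09, q = 2.87e-30. LAMP1, the most used marker of the lysosomal membrane, had 13248, 15704, 13022 and 13614 normalized counts in control replicates 1 to 4 and 13372, 16479, 14254 and 13247 in OGTi replicates 1 to 4. Its groups overlapped, with OGTi replicate 2 the highest of the 8 libraries and control replicate 3 the lowest, and the log2 fold change was 0.04 ± 0.06, q = 0.611, with an unadjusted 95% interval from -0.08 to 0.17. LAMP2, the related glycoprotein whose A isoform serves chaperone-mediated autophagy, had 3902, 4945, 4661 and 4296 normalized counts in control replicates 1 to 4 and 4442, 4961, 5136 and 5477 in OGTi replicates 1 to 4. LAMP2 did not pass the threshold (0.17 ± 0.08, q = 0.0542; unadjusted 95% interval 0.02 to 0.32), but it passed when replicate 2 was left out (log2 fold change 0.23, q = 0.0417). CD63, a tetraspanin of late endosomes and lysosomes, had a log2 fold change of -0.12 ± 0.07, q = 0.167. The rise of the channel gene stood beside abundant membrane glycoproteins for which no change passed the test.

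The hydrolases are described by their substrates, starting with the proteases. CTSL (chr9:87724051-87731469, plus strand), the cysteine protease cathepsin L, had 1843, 1771, 1549 and 1667 normalized counts in control replicates 1 to 4 and 4910.2, 4105, 3353 and 3747 in OGTi replicates 1 to 4. It rose 2.34-fold (log2 fold change 1.23 ± 0.08, q = 1.27e-51), the largest rise among the 18 hydrolase genes, and the groups did not overlap. CTSD (chr11:1752752-1764573, minus strand), the aspartic protease cathepsin D, had 10477, 10888, 9708 and 11844 normalized counts in control replicates 1 to 4 and 14012, 14294, 16044 and 16162 in OGTi replicates 1 to 4. It also rose without overlap (log2 fold change 0.50 ± 0.07, q = 1.74e-10) and lay just under the fold limit of 0.5. CTSB, another cysteine protease, was called at 0.16 ± 0.06, q = 0.0373 with overlapping groups, and the call was lost in each fit that left out a pair (q between 0.0676 and 0.219), in both fits without the replicate block (q = 0.315 with DESeq2 and 0.309 with edgeR) and in the blocked edgeR fit (q = 0.0631).

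The remaining members of this subgroup did not rise. CTSZ, a carboxypeptidase of the cathepsin family, had 3812, 4076, 3122 and 3143 normalized counts in control replicates 1 to 4 and 2354, 3298, 2294 and 2148 in OGTi replicates 1 to 4. It fell by 0.50 on the log2 scale (q = 1.38e-08) and was lower in all 4 pairs, although OGTi replicate 2 lay within the range of the control libraries. CTSA, the protective protein that keeps the sialidase NEU1 stable in a complex, had 12699, 13772, 10775 and 12597 normalized counts in control replicates 1 to 4 and 12008, 14658, 12332 and 11901 in OGTi replicates 1 to 4 and was not called (log2 fold change 0.03 ± 0.07, q = 0.763). CTSK, the collagen-cleaving cathepsin K best known from osteoclasts, had 49.7, 50.7, 54 and 65.5 normalized counts in the control libraries and 30.2, 45.2, 49 and 40.1 in the OGTi libraries. At this depth its log2 fold change of -0.43 ± 0.33 did not pass the test (q = 0.298), although the groups did not overlap. Of the 6 genes of the subgroup 3 rose and 1 fell, with a median of 0.09.

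Glycosidases and sulfatases take sugars and sulfate groups off glycans and glycolipids, and 5 of 8 rose and 0 fell (median 0.62). NEU1 (chr6:31857659-31862905, minus strand), the sialidase, had 1403, 1393, 1126 and 1417 normalized counts in control replicates 1 to 4 and 2912, 3565, 2782 and 2976 in OGTi replicates 1 to 4. It rose 2.29-fold (log2 fold change 1.20 ± 0.09, q = 1.73e-42) while its partner CTSA did not pass the test. GLA (chrX:101393273-101408012, minus strand), the galactosidase deficient in Fabry disease, had 512, 553, 503 and 483 normalized counts in control replicates 1 to 4 and 978, 943, 864 and 899.5 in OGTi replicates 1 to 4, a log2 fold change of 0.85 ± 0.10, q = 5.62e-15. SGSH (chr17:80206716-80220923, minus strand), the sulfamidase of heparan sulfate breakdown, had 1712, 1624, 1597 and 1744 normalized counts in control replicates 1 to 4 and 2698, 2496, 2971 and 2839 in OGTi replicates 1 to 4, a log2 fold change of 0.72 ± 0.08, q = 2.06e-17. None of the 3 genes had an OGTi library within the control range.

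GAA (chr17:80101533-80119881, plus strand), the glucosidase that degrades glycogen, had 2119.9, 1901, 1812 and 2110.3 normalized counts in control replicates 1 to 4 and 3373, 2944, 3231 and 3012 in OGTi replicates 1 to 4. ARSA (chr22:50622754-50628173, minus strand), the arylsulfatase that acts on sulfatides, had 429, 409.6, 347 and 393 normalized counts in control replicates 1 to 4 and 567, 669.97, 557 and 552 in OGTi replicates 1 to 4. Both rose without overlap, GAA by a log2 fold change of 0.66 ± 0.08, q = 3.31e-15 and ARSA by 0.57 ± 0.12, q = 1.37e-05. HEXA, NAGLU and ARSB, which act on gangliosides, heparan sulfate and dermatan sulfate, were not called, with log2 fold changes of 0.07 ± 0.08, -0.27 ± 0.13 and 0.16 ± 0.09. NAGLU was called lower in the blocked edgeR fit (q = 0.0352, beside 0.0712 with DESeq2). SGSH rose and NAGLU did not pass the test, although both enzymes act on heparan sulfate.

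All 4 genes of lipid breakdown rose without overlap between the groups (median 0.56). LIPA (chr10:89213569-89414557, minus strand), the acid lipase that cleaves cholesteryl esters and triglycerides, had 1623, 1698, 1677 and 1597 normalized counts in control replicates 1 to 4 and 2303, 2607, 2904 and 2990.1 in OGTi replicates 1 to 4, a log2 fold change of 0.71 ± 0.09, q = 1.51e-14. ASAH1, the acid ceramidase, had 793, 650.1, 607 and 749.9 normalized counts in control replicates 1 to 4 and 1119, 1097, 1033 and 1227 in OGTi replicates 1 to 4, a log2 fold change of 0.68 ± 0.10, q = 7.67e-11. SMPD1, the acid sphingomyelinase, and PSAP, the precursor of the saposins that present sphingolipids to hydrolases, rose less, with log2 fold changes of 0.30 ± 0.08 (q = 0.00103) and 0.44 ± 0.07 (q = 4.00e-10).

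**Figure D3:**
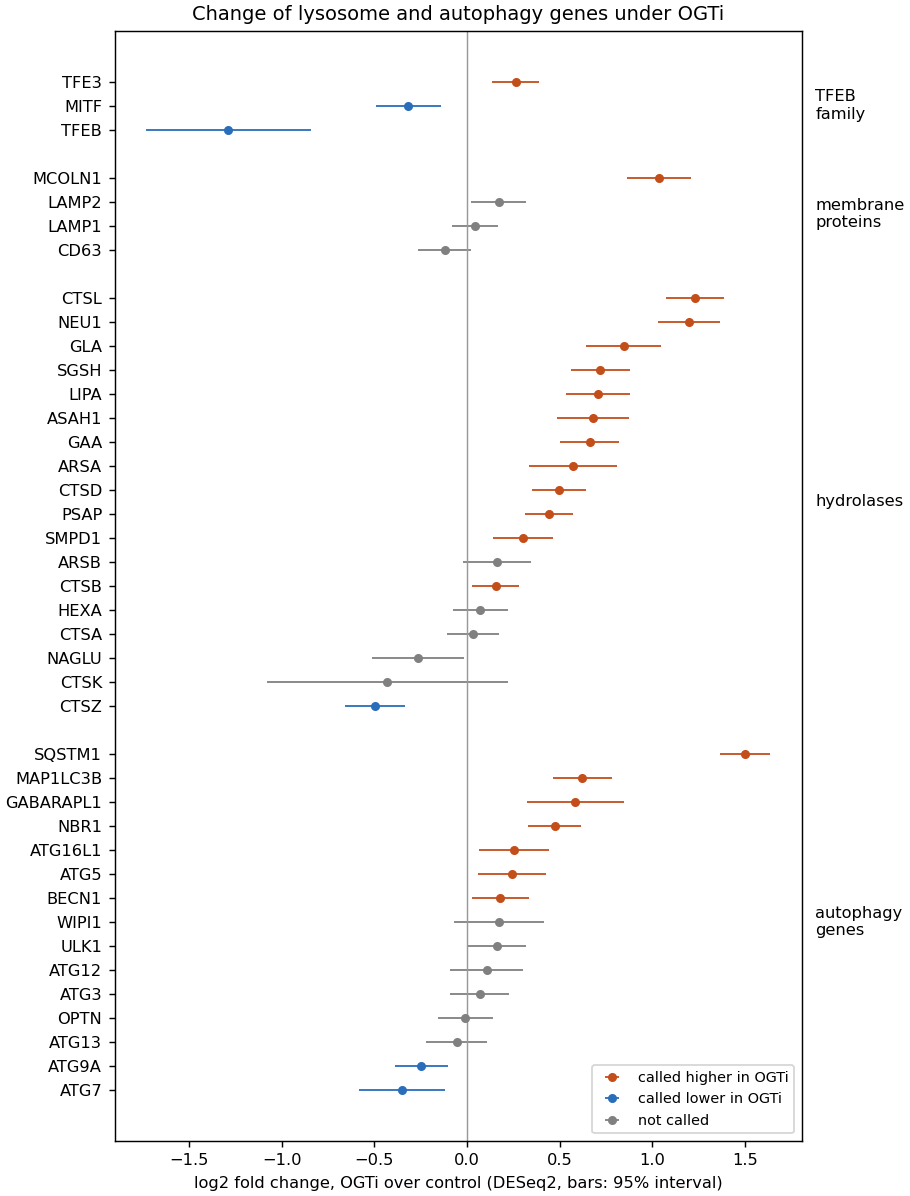
The x axis gives the DESeq2 log2 fold change of OGTi over control for each of the 40 genes, ordered by group, with bars for the unadjusted 95% interval, and colors mark genes called higher, called lower and not called. The hydrolase group is shifted to the right (12 of 18 called higher), LAMP1, LAMP2 and CD63 lie near 0, and SQSTM1 (1.50) and TFEB (-1.29) are the extremes.

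The promoters of these genes were read for the E-box core CACGTG, the letters at the center of the binding motif of the TFEB family, on both strands in windows from 250 bases before to 50 after each transcription start of RefSeq (GRCh38.p14). Windows were found for 31 of the 40 genes, 50 windows in all, and a gene counted when any of its windows held the core. The genes without a window were LAMP2 and the hydrolase genes CTSB, CTSK, HEXA, NAGLU, SGSH, ARSA, ASAH1 and PSAP. Of these 31 genes 9 (29.0%) held it, beside 12.5% of 10915 tested genes with a window and 8.77% of all 27305 genes. By single windows, 7.26% of 35116 held it. A gene with more windows had more chances to hold the core, and CD63 had 8 windows. The longer form TCACGTG, which contains the core, was held by 8 of the 31 genes and 6.98% of tested genes with a window. The palindrome made of the core with GT before it and AC after it, which contains both shorter forms, was held by 2 of the 31 genes (GAA and MCOLN1) and 0.834% of tested genes. A match is a description of letters and not of binding.

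The sequences from 200 bases before to 10 after the start are given for the 4 genes with the core that rose and for LAMP1 and CTSA, which hold the core and were not called, to show both outcomes side by side. Each is written 5′ to 3′ on the strand of the gene, with CACGTG in capitals. They cover chr19:7522424-7522633 (plus strand) for MCOLN1, chr6:31862812-31863021 (minus) for NEU1, chr17:80101381-80101590 (plus) for GAA, chr11:1763918-1764127 (minus) for CTSD, chr13:113297039-113297248 (plus) for LAMP1 and chr20:45891135-45891344 (plus) for CTSA.
MCOLN1: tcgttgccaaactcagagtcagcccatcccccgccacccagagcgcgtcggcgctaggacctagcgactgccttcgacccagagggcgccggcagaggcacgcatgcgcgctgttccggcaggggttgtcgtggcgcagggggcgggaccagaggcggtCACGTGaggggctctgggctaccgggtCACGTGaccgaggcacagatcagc
NEU1: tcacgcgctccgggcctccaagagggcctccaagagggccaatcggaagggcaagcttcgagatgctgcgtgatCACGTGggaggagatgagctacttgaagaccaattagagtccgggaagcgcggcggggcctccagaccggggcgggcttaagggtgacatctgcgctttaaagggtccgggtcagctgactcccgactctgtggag
GAA: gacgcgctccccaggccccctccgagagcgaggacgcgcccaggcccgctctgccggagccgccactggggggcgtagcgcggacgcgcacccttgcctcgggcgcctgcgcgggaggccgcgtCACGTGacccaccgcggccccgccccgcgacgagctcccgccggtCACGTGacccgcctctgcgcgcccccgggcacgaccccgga
CTSD: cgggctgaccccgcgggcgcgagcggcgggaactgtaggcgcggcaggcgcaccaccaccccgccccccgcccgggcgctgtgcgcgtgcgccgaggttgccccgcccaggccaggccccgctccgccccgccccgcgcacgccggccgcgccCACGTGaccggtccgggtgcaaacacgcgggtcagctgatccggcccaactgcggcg
LAMP1: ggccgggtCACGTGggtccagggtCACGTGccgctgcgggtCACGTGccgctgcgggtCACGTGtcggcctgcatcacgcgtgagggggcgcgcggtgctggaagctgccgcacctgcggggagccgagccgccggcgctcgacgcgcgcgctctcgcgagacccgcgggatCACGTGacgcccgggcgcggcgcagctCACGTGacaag
CTSA: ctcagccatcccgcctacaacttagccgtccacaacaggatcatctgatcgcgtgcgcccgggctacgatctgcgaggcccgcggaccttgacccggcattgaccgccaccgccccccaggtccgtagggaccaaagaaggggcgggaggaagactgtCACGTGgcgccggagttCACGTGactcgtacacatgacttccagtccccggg

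The core began 41 and 14 bases before the start in MCOLN1, 126 before in NEU1, 76 and 31 before in GAA and 47 before in CTSD. LAMP1 held 6 cores, at 192, 176, 159, 142, 28 and 1 bases before the start, the most among the 31 genes. CTSA held 2, at 42 and 25 bases before the start. Of the 9 genes with a core, 4 rose, 0 fell and 5 were not called (CTSA, ARSB, LAMP1, CD63 and ATG3), with a median log2 fold change of 0.16. Of the 22 genes with a window and no core, 12 rose, 5 fell and 5 were not called, with a median of 0.21. Both counts leave out the genes without a window, most of which are hydrolase genes. Of all 10915 tested genes with a window, 23.0% were called higher and 24.6% lower, and of those with the core 25.8% and 24.9%. SQSTM1, CTSL and TFEB were among the genes whose windows held none of these letters. Neither difference, in how often the core occurred or in how genes with and without it changed, was tested.

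**Figure D4:**
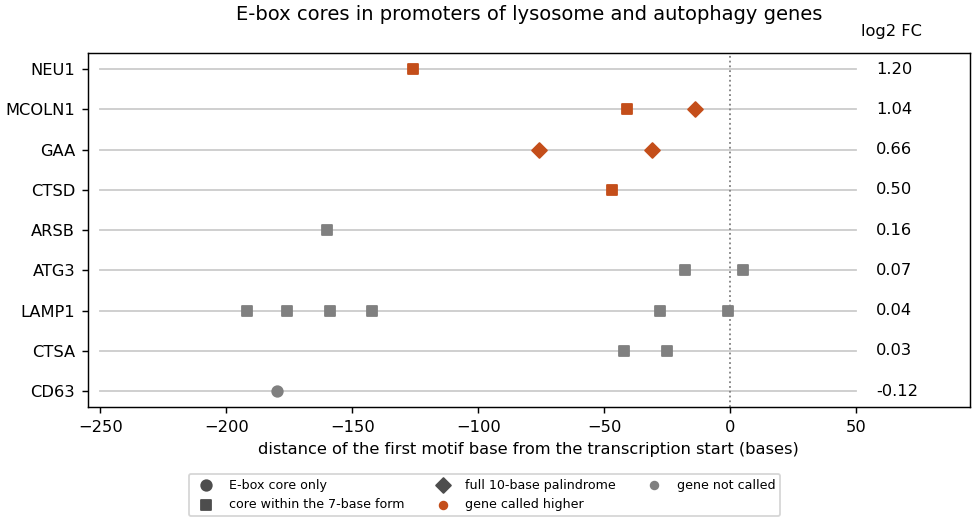
Each row is 1 of the 9 genes with a CACGTG core, and the x axis gives the distance in bases of the first motif base from the transcription start (dotted line). Symbol shapes tell the 6-base core, the 7-base form and the 10-base palindrome apart, colors tell genes called higher from those not called, and the number at the right is the log2 fold change. LAMP1, with 6 sites, has a log2 fold change of 0.04, and NEU1, with 1 site, has 1.20.

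Among the 15 autophagy genes SQSTM1, MAP1LC3B and GABARAPL1 were the 3 called with an absolute log2 fold change of at least 0.5. Of all genes 24.2% were called this way in either direction. SQSTM1 (chr5:179806398-179838078, plus strand), which encodes the ubiquitin-binding receptor p62, had 8201, 8639.7, 7475 and 9157 normalized counts in control replicates 1 to 4 and 22371, 23908, 24011 and 24193 in OGTi replicates 1 to 4. It rose 2.83-fold (log2 fold change 1.50 ± 0.07, q = 2.66e-100), the largest change among the 40 genes in either direction, and the lowest OGTi library lay far above the highest control library. NBR1, a receptor of related domain structure, rose by a log2 fold change of 0.47 ± 0.07, q = 5.22e-10. OPTN, a receptor known from damaged mitochondria and bacteria, had -0.01 ± 0.08 and was not called (q = 0.937).

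MAP1LC3B (chr16:87383953-87404779, plus strand) encodes the ATG8 protein LC3B, which is coupled to the autophagosome membrane. It had 1979.6, 1856, 2036 and 2163 normalized counts in control replicates 1 to 4 and 2684, 3230.3, 3199 and 3282 in OGTi replicates 1 to 4. OGTi replicate 1 was the lowest of its group and still above every control library, and the log2 fold change was 0.62 ± 0.08, q = 5.32e-13. The near-identical copy MAP1LC3B2 took 5.04 to 17.51 expected counts per library, beside 1772 to 3327 for MAP1LC3B, and summing both left the call as it was. GABARAPL1 (chr12:10212458-10223128, plus strand), another ATG8 protein, had 538, 480.04, 456 and 406 normalized counts in control replicates 1 to 4 and 642, 633, 751 and 796 in OGTi replicates 1 to 4. It rose without overlap, with a log2 fold change of 0.58 ± 0.13, q = 4.92e-05.

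The conjugation machinery, which couples ATG8 proteins to lipid, moved little. ATG5 (log2 fold change 0.24 ± 0.09, q = 0.025) and ATG16L1 (0.25 ± 0.10, q = 0.0225), partners in the complex that directs the coupling, rose, while ATG7 (-0.35 ± 0.12, q = 0.00766), the enzyme that activates ATG8 proteins and ATG12, fell. ATG3 and ATG12 were not called, with 0.07 ± 0.08 and 0.11 ± 0.10. The call of ATG16L1 was lost without any 1 of the pairs (q between 0.0584 and 0.147). That of ATG5 was lost without replicate 1 (q = 0.124), 2 (q = 0.132) or 4 (q = 0.125). That of ATG7 was lost without replicate 3 (q = 0.0825) or 4 (q = 0.0759). The medians of the single pairs for these 5 genes lay between 0.08 and 0.18.

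Of the 5 genes of initiation and nucleation, 1 rose and 1 fell (20% each), near the 22.7% and 24.0% of all genes. BECN1, a subunit of the lipid kinase complex that nucleates the membrane, was called by a narrow margin at 0.18 ± 0.08, q = 0.04995. Its call was lost without replicate 2 (q = 0.205), 3 (q = 0.221) or 4 (q = 0.168), with no filter on low counts (q = 0.0507) and in edgeR without the block (q = 0.0650). ATG9A, the lipid scramblase on vesicles that seed the membrane, fell (-0.25 ± 0.07, q = 0.00215). ULK1 (0.16 ± 0.08, q = 0.0849), its partner ATG13 (-0.06 ± 0.08) and WIPI1 (0.17 ± 0.12), which reads the nucleated membrane, were not called. With 1 pair left out, the autophagy genes called higher numbered 5 without replicate 1 or 3 and 4 without replicate 2 or 4, instead of 7, and those called lower numbered 1 without replicate 3 or 4, instead of 2. Of all genes, 19.4%, 17.6%, 18.1% and 18.2% were called higher without replicates 1, 2, 3 and 4, and 21.1%, 19.7%, 20.1% and 19.7% lower.

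In control libraries CTSA had the highest level of the 40 genes per kilobase of transcript, 6706 ± 669 normalized counts per kilobase, followed by CTSD (5221 ± 433), LAMP1 (5145 ± 455), CD63 (4866 ± 209) and PSAP (4339 ± 309.9). CTSD and LAMP1 differed by less than the SD of either, and LAMP1 and CD63 by less than the SD of LAMP1. SQSTM1 was the sixth with 2947 ± 251, and in OGTi it had the highest level, 8317 ± 296, above CTSD (7362 ± 551) and CTSA (6849 ± 701). The lowest were ARSA (91.9 ± 8.12), TFEB (71.1 ± 12.7) and CTSK (33.8 ± 4.46).

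The other genes of the same pathways were taken from 6 lists fixed by name, also with earlier results of these data known. Of 165 genes 164 were listed and 161 had a q-value, and among these 73 rose and 20 fell (45.3% and 12.4%, beside 22.7% and 24.0% of all genes), with a median log2 fold change of 0.20. The list of other hydrolases and activators had 26 of 40 higher and 5 lower (median 0.32), and the list of other membrane proteins 13 of 30 higher and 1 lower (median 0.25). Of 22 subunits of the V-ATPase, the proton pump that acidifies the lysosome, 9 rose and 1 fell (median 0.19). Of 9 genes of mannose 6-phosphate sorting, which carries hydrolases to the lysosome, 5 rose and 3 fell (median 0.21). The list of mTORC1 and Rag genes, which control TFEB, also holds TFEC, another gene of the TFEB family. It had 8 of 18 higher and 4 lower (median 0.20). In the list of other autophagy genes 12 of 42 were higher and 6 lower (median 0.07).

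The genes named from these lists are the largest called changes where the mean reached 100 normalized counts, so that larger changes of genes with fewer counts, such as the rises of CTSO (log2 fold change 1.45) and ATP6V1B1 (1.04), are not ranked. Among the other hydrolases above that level the peptidase DPP7 (1.69 ± 0.21, q = 5.91e-14) and the mannosidase MANBA (1.26 ± 0.12, q = 2.00e-26) rose most, and AGA, which splits glycoasparagines (-0.85 ± 0.16, q = 1.28e-06), and the palmitoyl thioesterase PPT1 (-0.52 ± 0.07, q = 1.67e-12) fell most. Among the other membrane proteins CD68 had a log2 fold change of 1.25 ± 0.08 and went from 3236 ± 659 to 7687 ± 1622 normalized counts. CD68 is widely used as a macrophage marker. Of the macrophage and leukocyte markers listed, CD14 had 41.1 to 92.4 normalized counts per library, LYZ 5.75 to 28.8, and PTPRC and CSF1R 0 to 11.5, and their part in the CD68 result was not tested. The lysosomal channel TPCN1 rose by 1.18 ± 0.08 and the metal transporter SLC11A2 had -0.56 ± 0.11. Among V-ATPase subunits above that level ATP6V0A2 (0.82 ± 0.11) and ATP6V0B (0.55 ± 0.10) rose most, and the 1 called lower was ATP6V1G3, a gene with a mean under 100 normalized counts.

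In the list of other autophagy genes the lipid transfer protein ATG2A rose by 0.88 ± 0.07 and C9orf72 by 0.79 ± 0.24, and the ATG8 gene MAP1LC3A (-0.68 ± 0.19) and the kinase ULK2 (-0.58 ± 0.18) fell. C9orf72 was not called without replicate 1 (q = 0.0529), nor ULK2 without replicate 2 (q = 0.0513). Of the sorting genes, IGF2R and M6PR, both receptors for mannose 6-phosphate, rose by 0.67 ± 0.08 and 0.44 ± 0.07, while the receptor SORT1 (-0.56 ± 0.07) and the uncovering enzyme NAGPA (-0.41 ± 0.12) fell, the last not without replicate 4 (q = 0.0504). Among mTORC1 and Rag genes RRAGB (0.61 ± 0.17) and LAMTOR2 (0.53 ± 0.16) rose and LAMTOR4 (-0.48 ± 0.18) and MLST8 (-0.31 ± 0.09) fell. LAMTOR2 was not called without replicate 2 (q = 0.0727), nor LAMTOR4 without replicate 1 (q = 0.158), 3 (q = 0.0827) or 4 (q = 0.0948).

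**Figure D5:**
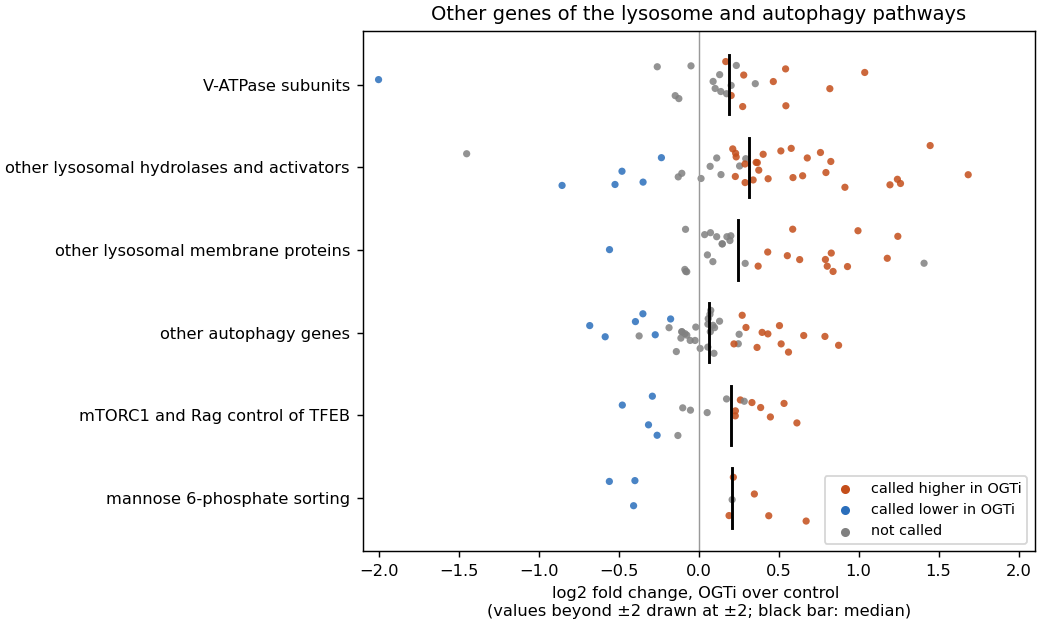
Each point is 1 gene of the 6 wider lists, the x axis gives its DESeq2 log2 fold change of OGTi over control, colors mark the call and black bars the list median. The value beyond -2, of ATP6V1G3, is drawn at -2. The list of other hydrolases lies furthest to the right (median 0.32) and that of other autophagy genes nearest to 0 (0.07).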

How the data were processed

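Polyadenylated RNA of 8 LX-2 libraries (4 control, 4 OGTi) was sequenced from both ends with a strand-specific protocol. The authors aligned reads to hg38 with Bowtie2 2.3.5.1 and deposited RSEM 1.3.1 expected counts per gene, not scaled for depth, in which reads with several alignments are shared between genes. Libraries held 24166756 to 28201215 expected counts. The authors also deposited a DESeq2 1.36.0 comparison table (log2 fold changes, standard errors, Wald statistics, p-values, adjusted p-values and means), which was not used here. Here expected counts were rounded, genes with a total under 10 counts were left out, and 14895 genes were fitted with the Wald test of DESeq2 1.42.0 in R 4.3.3. Replicate number was a block beside treatment, fold changes were not shrunken, and q-values are Benjamini-Hochberg adjusted over all genes. The study's methods pair libraries by replicate, and the deviations of same-numbered libraries from their group means correlated with r of 0.165 to 0.391 across 10994 genes, which are not independent replicates. Control replicate 3 correlated more with OGTi replicate 4 (0.343) than with OGTi replicate 3 (0.165), and control replicate 4 had 0.255 with OGTi replicate 3, so the pairing rests on the labels and the methods. The script was tested on simulated data. Alternatives were DESeq2 without the block, edgeR 4.0.16 with and without it, TMM factors, other count filters, leaving out each pair, summing near-identical copies, and a fold limit. The 40 genes, the 6 wider lists and the tests were chosen with earlier results of these data known. Values per library are given for genes called with an absolute log2 fold change of at least 0.5 and for 8 genes set by name, to which CTSZ, CTSA and CTSK were added after their values were seen. From each wider list the 2 largest called rises and falls are named, where the mean reached 100 normalized counts and all 4 pairs had 1 direction. Positions and transcript lengths are from GENCODE 44 (GRCh38). The treatment label of control replicate 4 spells the vehicle DSMO, and its title calls it a control.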

Additional observations from a re-analysis of the deposited data

Results flagged for a closer look

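Of 122 groups of 4 libraries examined (the 40 genes and the 21 genes named from the wider lists, in control and in OGTi), 9 held a library far from the other 3 by Dixon's test, beside 6.1 that chance gives at 1 in 20. In OGTi replicate 1, SQSTM1 had 22371 normalized counts (others 23908 to 24193), MAP1LC3B had 2684 (others 3199 to 3282) and ULK1 had 3036 (others 2429 to 2530). In OGTi replicate 2, CTSA had 14658 (others 11901 to 12332), ARSA had 669.97 (others 552 to 567) and LAMTOR4 had 280.2 (others 173 to 179). In control replicate 3, NEU1 had 1126 (others 1393 to 1417) and ATP6V0B had 935 (others 1181 to 1205). In control replicate 1, SMPD1 had 1674 (others 1446 to 1462). For NEU1, ARSA, SMPD1, MAP1LC3B, SQSTM1 and ATP6V0B the rise was called in every alternative fit.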

How the results depend on the processing

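Of the 40 genes, 31 had the same call and the same sign in every alternative fit. The call changed in some fit for CTSB, NAGLU, LAMP2, BECN1, ATG5, ATG7 and ATG16L1, while CTSA and OPTN changed only in sign. Of the 21 genes named from the wider lists, 16 kept their call and sign. Asking for an absolute log2 fold change of at least 0.5 left 12 of the 40 genes higher and 1 lower, beside 11.7% and 12.5% of all genes. By group this left 0 higher and 1 lower in the TFEB family, 0 lower among hydrolases, and 3 higher and 0 lower among autophagy genes. In the blocked edgeR fit 2 hydrolases were lower, CTSZ and NAGLU. Without the replicate block 20 of the 40 genes were higher and 5 lower with DESeq2, beside 21.2% and 22.0% of all genes. With edgeR 19 and 5 were, beside 20.0% and 20.5%. With 1 pair left out, 17 to 18 genes were higher and 4 to 5 lower, beside 17.6 to 19.4% and 19.7 to 21.1% of all genes. In these fits the median log2 fold change of the 40 genes was 0.18 to 0.22 (0.22 without replicate 2). Of the membrane proteins 1 to 2 were higher, and of the autophagy genes 4 to 5 were higher and 1 to 2 lower. The uncalled log2 fold changes near 0 changed sign, for CTSA (-0.028 to 0.069, lowest without replicate 3) and OPTN (-0.041 to 0.0053). The cause of these changes was not tested, beyond the smaller number of libraries when a pair is left out. In the wider lists the alternatives gave 56 to 79 genes higher and 15 to 21 lower. Of all genes, 17.6 to 23.4% were called higher and 19.7 to 24.1% lower in the edgeR fits, the fits without the block and those with 1 pair left out. Depth limits CTSK and TFEB most, which had under 200 normalized counts in every library.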

Other observations

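Several genes of the wider lists are described here. They were chosen after their values were seen, so they add no support to the counts above. Genes behind lysosomal storage diseases did not all move together. IDUA, which starts the breakdown of heparan and dermatan sulfate, had a log2 fold change of 1.24 ± 0.13 (q = 3.97e-20, DESeq2). FUCA1, the fucosidase, had 0.91 ± 0.11 (q = 1.06e-15, DESeq2). AGA (-0.85 ± 0.16) and PPT1 (-0.52 ± 0.07), named above, fell, and GALNS (-0.10 ± 0.10) was not called. The cholesterol exporters NPC1 and NPC2 rose from 2192 ± 274 to 4397 ± 748 and from 1909 ± 167 to 2729 ± 274 normalized counts (SD, n = 4). CTSC, a dipeptidyl peptidase that activates serine proteases, fell (-0.48 ± 0.07, q = 2.84e-11), and LGMN, the asparaginyl endopeptidase, rose (1.20 ± 0.08, q = 2.11e-49). The ATG8 genes did not move together: MAP1LC3B and GABARAPL1 rose, while GABARAP (-0.35 ± 0.09, q = 0.000238), GABARAPL2 (-0.27 ± 0.10, q = 0.0184) and MAP1LC3A fell.

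Over all tested genes with a promoter window, the 91 that held the 10-base palindrome had 33 called higher (36.3%) and 17 called lower (18.7%), beside 23.0% and 24.6% of the 10915 genes. The 1359 genes with the core CACGTG had 25.8% called higher and 24.9% called lower. These are counts over genes, described with no test.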
